A study of Drosophila melanogaster with 12 samples.

Results

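The mitochondrial ribosome makes the few respiratory-chain proteins that mitochondrial DNA encodes. Its rRNAs come from mitochondrial DNA, whereas all of its proteins are encoded in the nucleus, translated in the cytosol and imported. The mRpL genes encode proteins of the large subunit, which forms peptide bonds, and the mRpS genes encode proteins of the small subunit, which reads the mRNA. Some have relatives in bacterial ribosomes and others are particular to mitochondria. The genes described here are those whose symbol in the RNA-seq table begins with mRpL or mRpS. There were 72 of them among the 10287 genes of the table, 46 for the large subunit and 26 for the small subunit.

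RNA-seq and ATAC-seq were performed on Drosophila S2 cells, a macrophage-like male line (Schneider 2, breed Oregon-R in the labels). All cells were starved of serum and were then exposed for 4 h to insulin, at 10 µM in the study's methods and 10 M in the labels, or to vehicle, 25 mM HEPES at pH 8.2. There were 3 insulin and 3 vehicle samples for each assay. The RNA-seq libraries are called X4, X5 and X6 for insulin and X1, X2 and X3 for vehicle, and values per library are given in these orders. Whether they were separate cultures is not stated, and p-values therefore reflect only how far these libraries scatter.

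The insulin libraries held 7132065 to 9850342 counts and the vehicle libraries 8125856 to 10256535. Of the plasmatocyte markers looked up, 7 were in the table, all with counts in every library, and the others were not found in it. After insulin 6 of the 7 fell. The summed level of the 7 was 1237 to 1309 CPM (counts scaled to the size of the library) in insulin libraries and 1477 to 1513 CPM in vehicle libraries. Of the markers of other cell types, 10 were in the table, the others were not found in it, and 5 passed the filter on low counts. The summed level of the 10 was 81.9 to 88.3 CPM in insulin libraries and 74.7 to 85.5 CPM in vehicle libraries. Most of that sum was elav, a neuronal RNA-binding protein gene, and the muscle myosin gene Mhc lay below 0.8 CPM in every library. The part of these markers in the results below was not tested. In bulk RNA, fewer cells of a type and less RNA per cell cannot be told apart.

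Insulin raised nearly the whole set. Of the 72 genes, 67 rose, 0 fell and 5 were not called (FDR < 0.05, edgeR's quasi-likelihood test over all 8683 genes tested). The 0 falls were also 0 by DESeq2, and since all 72 fold changes were positive, 0 genes were lower at an unadjusted p under 0.05. Among all genes tested, 27.0% rose and 23.1% fell. The median log2 fold change was 0.49 for the 72 genes, which is a 1.41-fold rise, against -0.01 for all genes tested. The changes were modest and of similar size, with a range of 0.14 to 0.89, and 24 genes exceeded a 1.5-fold rise. All 72 passed the filter on low counts, with 27 to 1149 counts per gene and library.

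The same pattern was visible in each library. The 72 genes together made up 2717, 2898 and 2764 CPM in the insulin libraries, against 1981, 2047 and 1970 CPM in the vehicle libraries. The insulin sums were all above the vehicle sums, by 1.40-fold on average. All 3 insulin libraries were above all 3 vehicle libraries for 71 genes, a separation that 28.8% of all genes tested showed in that direction. The exception was mRpS28. Library X5 held the highest value for 44 of the 72 genes and was the shallowest library, and without it 63 genes rose rather than 67.

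**Figure D1:**
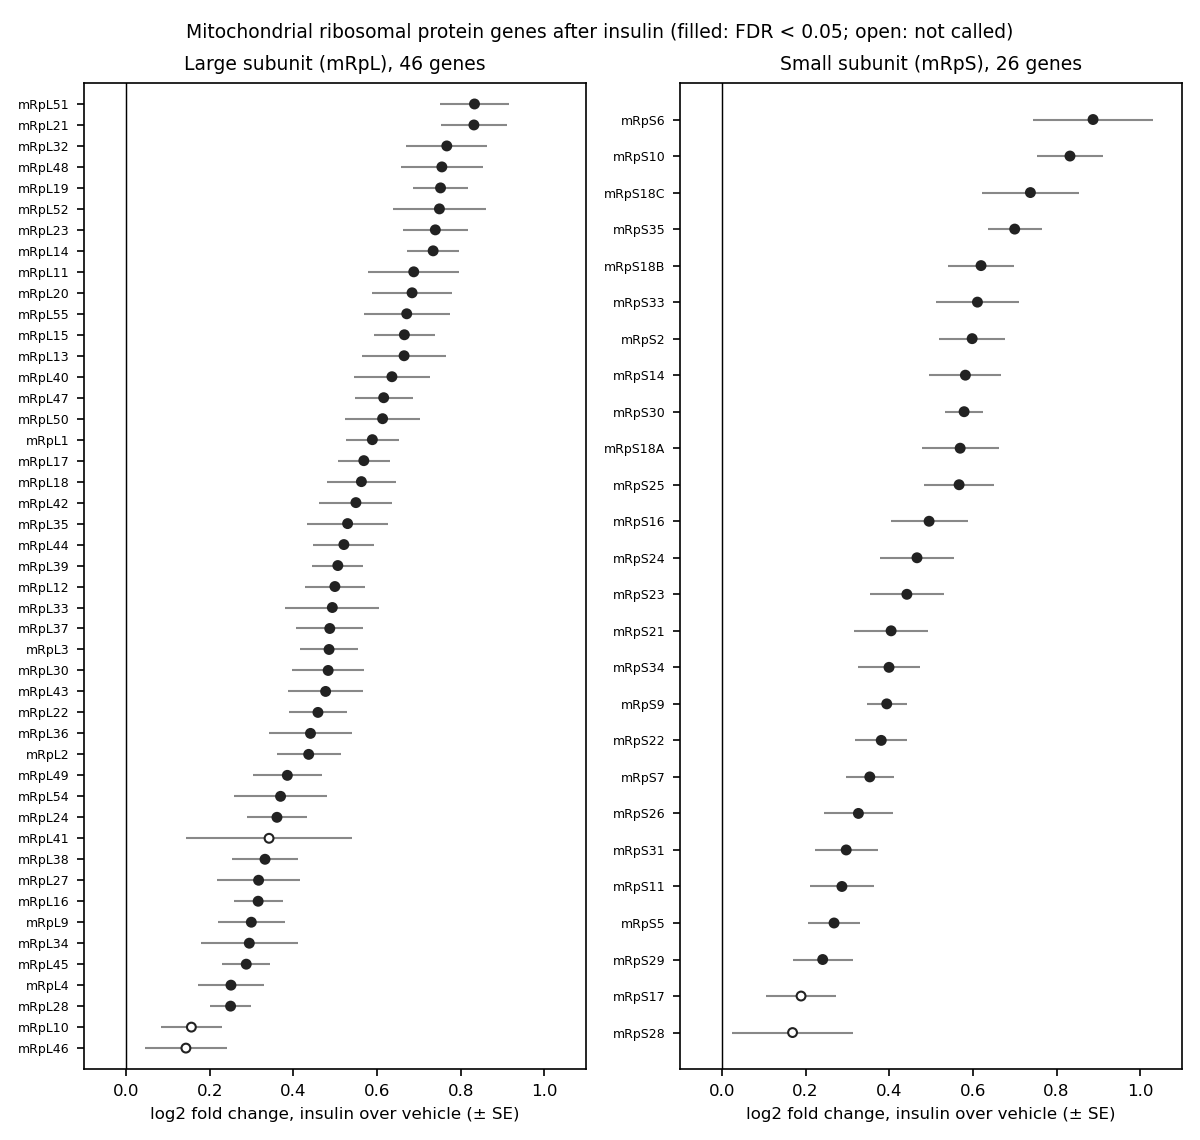
Log2 fold change of each mRpL gene (left) and mRpS gene (right), insulin over vehicle, with bars of 1 SE from edgeR. All 72 points lie to the right of 0, between 0.14 and 0.89, and the 5 open points are the genes that were not called.

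**Figure D2:**
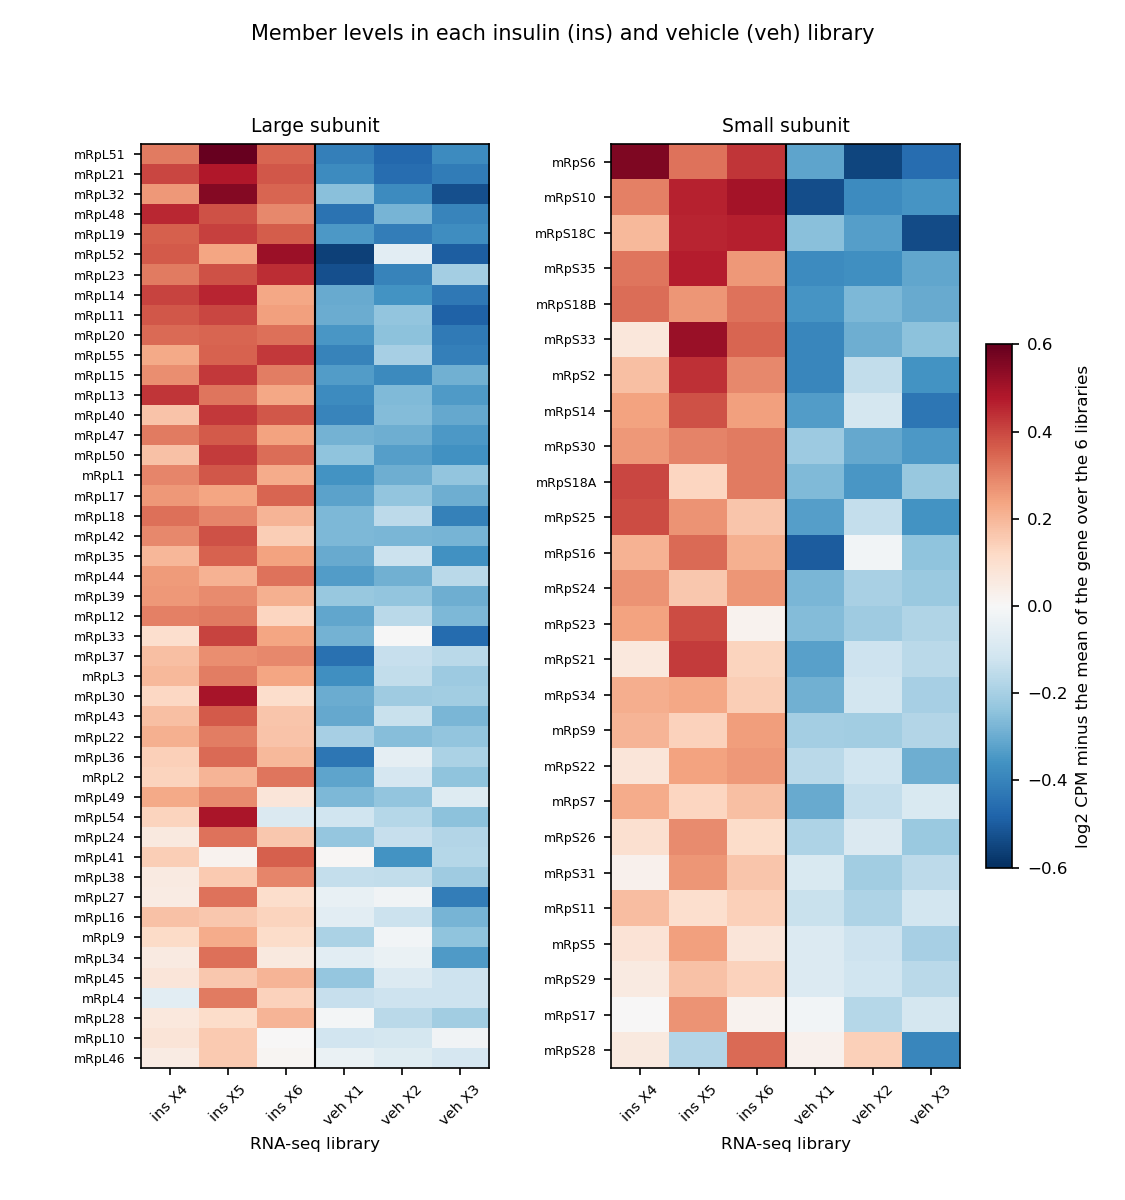
Level of each gene in each library as log2 CPM minus the mean of the gene over the 6 libraries, with insulin libraries on the left of each panel and colours ending at 0.6 in either direction. The insulin columns are above the mean for almost every gene, X5 is the highest column for 44 of the 72 genes, and mRpS28 in the last row of the small subunit is mixed.

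The subunits moved to a similar extent. Of the large subunit genes, 43 of 46 rose with a median log2 fold change of 0.50, and of the small subunit genes, 24 of 26 rose with a median of 0.45. In mammals, the counterparts of mRpS30 and of mRpS18A sit in the large subunit despite their names. Counted with the large subunit, these genes give 45 of 48 for the large and 22 of 24 for the small subunit. Ancestry made little difference either, since 41 of 44 genes with bacterial relatives rose, with a median of 0.49, and 26 of 28 genes particular to mitochondria rose, with a median of 0.50. In these counts mRpS18A and mRpS18B, both of which rose, were classed as particular to mitochondria, although they are related to bacterial S18. mRpS18C was classed with the bacterial relatives. The difference between the subunits or between the ancestries was not tested, because genes are not replicates.

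The greatest rise was that of mRpS6, a relative of bacterial S6, at 11.7, 9.97 and 10.7 CPM in insulin libraries and 6.38, 5.43 and 5.79 CPM in vehicle libraries. The groups were well separated, and the log2 fold change was 0.89 ± 0.14 (SE, FDR = 1.36e-06, edgeR). This gene was low, however, with 44 to 114 counts per library, and its SE was among the larger ones. Next was mRpL51, a large subunit protein particular to mitochondria, at 35.3, 42.9 and 36.2 CPM in insulin libraries and 21.4, 20.5 and 21.8 CPM in vehicle libraries (log2 fold change 0.83 ± 0.08 SE, FDR = 1.44e-11, edgeR). The small subunit gene mRpS10 had 37.5, 41.9 and 42.9 CPM in insulin libraries and 21.0, 23.4 and 23.8 CPM in vehicle libraries, which is also 0.83 on the log2 scale. The gene of the L21 relative mRpL21 had 36.6, 38.7 and 35.9 CPM in insulin libraries and 21.4, 20.2 and 20.8 CPM in vehicle libraries, again 0.83. These 4 leading genes differed from each other by less than their SE.

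They were followed by mRpL32 at 0.77, mRpL48 at 0.76, mRpL19 at 0.75 and mRpL52 at 0.75 on the log2 scale, with SE of 0.07 to 0.11. The steadiest of these was mRpL19, at 52.6, 54.3 and 52.7 CPM in insulin libraries and 32.3, 30.7 and 31.6 CPM in vehicle libraries. In mRpL52 the vehicle values were 12.0, 16.9 and 12.5 CPM, below the 22.8, 20.8 and 25.2 CPM of the insulin libraries but with more spread. The genes mRpL48, mRpL51 and mRpL52 have no bacterial relative, whereas mRpL19, mRpL21 and mRpL32 do, so both kinds were present among the leaders.

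An mRpL and an mRpS gene with high counts, mRpL14 and mRpS30, had small errors. mRpL14 (FBgn0040389, chromosome X, 2343997 to 2344649, dm6) encodes a protein that in bacteria lies at the interface between the subunits. It had 71.0, 73.4 and 62.8 CPM in insulin libraries and 43.4, 41.7 and 39.8 CPM in vehicle libraries, a log2 fold change of 0.73 ± 0.06 (SE, FDR = 1.62e-13, edgeR). mRpS30 (FBgn0030692, chromosome X, 15786047 to 15788288) had 118, 121 and 122 CPM in insulin libraries and 84.9, 79.7 and 77.5 CPM in vehicle libraries, a log2 fold change of 0.58 ± 0.04 (SE, FDR = 9.28e-15, edgeR). In both genes the lowest insulin value was far above the highest vehicle value.

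The genes of the ribosomal stalks, the flexible arms that handle tRNAs and bind translation factors, did not move evenly. mRpL11, a protein of the stalk base, rose by 0.69 ± 0.11 and mRpL12, the relative of the bacterial stalk protein itself, by 0.50 ± 0.07 on the log2 scale (SE). mRpL1, of the arm beside the exit site for tRNA, rose by 0.59 ± 0.06. The level of mRpL10, which anchors mRpL12 to the ribosome in bacteria, was 35.8, 37.9 and 34.0 CPM in insulin libraries and 31.4, 31.6 and 33.4 CPM in vehicle libraries. Its groups did not overlap but lay close, and its log2 fold change of 0.16 ± 0.07 (SE) was not called (FDR = 0.0751, edgeR). The difference between mRpL10 and its neighbours in the stalk was not tested.

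The remaining genes that were not called are given here for completeness, and mRpL46 and mRpS17 were chosen after their values were seen. mRpS28 had 10.4, 8.81 and 12.6 CPM in insulin libraries and 10.1, 11.0 and 7.59 CPM in vehicle libraries, the only overlap between the groups (0.17 ± 0.14 SE, FDR = 0.348, edgeR). mRpL41 had 27 to 46 counts per library, so that a log2 fold change of 0.34 with an SE of 0.20 was not called (FDR = 0.153, edgeR). mRpL46 was deeper, and its 17.6, 18.9 and 17.1 CPM in insulin libraries were only slightly above the 16.5, 16.2 and 15.8 CPM in vehicle libraries (0.14 ± 0.10 SE, FDR = 0.231, edgeR). In mRpS17, library X5 was at 32.8 CPM, X4 and X6 were at 27.3 and 27.6 CPM, and the vehicle libraries were at 26.9, 24.2 and 25.2 CPM (FDR = 0.0575, edgeR).

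Bacterial S18 has 3 relatives in the fly, and all rose. mRpS18C, the counterpart of the mammalian protein closest to bacterial S18, had 15.4, 18.5 and 18.7 CPM in insulin libraries and 11.3, 10.7 and 9.30 CPM in vehicle libraries (log2 fold change 0.74 ± 0.12 SE). mRpS18B rose by 0.62 ± 0.08 and mRpS18A by 0.57 ± 0.09 (SE). In each of them all insulin libraries were above all vehicle libraries, and the differences between the paralogs were not tested.

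Levels can be compared between genes only per length, as CPM per kb of exon, and 70 genes had an exon length. In vehicle libraries they spanned a 12.1-fold range. By the mean of both treatments the highest were mRpL28, mRpL14, mRpS7 and mRpS9, and the lowest were mRpL41, mRpS6, mRpS28 and mRpL21. The low rank of mRpL21 depends on its exon length of 1696 bases over all annotated transcripts. Its mean level was 37.1 CPM in insulin libraries and 20.8 CPM in vehicle libraries, and which of its transcripts were present was not measured. mRpL28 stood at 92.3 ± 4.63 CPM per kb in insulin libraries and 77.6 ± 5.64 in vehicle libraries (SD, n = 3 each). mRpL14 stood at 106 ± 8.47 in insulin libraries and 63.7 ± 2.76 in vehicle libraries, so mRpL14 was above mRpL28 in mean after insulin and below it in vehicle. In insulin libraries the values of both overlapped (96.2 to 112 for mRpL14 and 88.4 to 97.4 for mRpL28), and in vehicle libraries they did not (60.9 to 66.4 for mRpL14 and 73.2 to 83.9 for mRpL28). mRpS7 and mRpS9, which belong to the head of the small subunit, were at 74.9 and 74.7 CPM per kb in insulin libraries and 58.7 and 56.8 in vehicle libraries, and did not differ beyond their spread in either treatment. At the low end, mRpL41 was at 8.17 ± 0.99 in insulin libraries and 6.41 ± 0.81 in vehicle libraries.

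Across the 72 genes, the fold change was at most weakly related to the level (Pearson r = -0.15, Spearman rho = -0.19 against mean log2 CPM), a description over genes that share the same 6 libraries. The most abundant genes thus included small rises (mRpL28, 0.25) and large ones (mRpL14, 0.73).

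Other genes of mitochondrial protein synthesis are given here beside the 27.0% of all genes tested that rose. Of the proteins of the small subunit that carry other names, 2 were looked up, and both rose. These were tko (the S12 relative, whose mutant is bang-sensitive) by 0.66 ± 0.05 and bonsai (the S15 relative) by 0.69 ± 0.07 on the log2 scale (SE). Of 9 mitochondrial translation factors 7 (77.8%) rose and 0 fell. The elongation factor G gene mEFG1 (ico) averaged 79.5 ± 3.65 CPM in insulin libraries and 38.3 ± 2.69 CPM in vehicle libraries (SD, n = 3 each), and the elongation factor Tu gene mEFTu1 averaged 246 ± 6.40 CPM in insulin libraries and 150 ± 2.99 CPM in vehicle libraries. The recycling factors mRRF1 and mRRF2 had log2 fold changes of 0.05 ± 0.17 and 0.01 ± 0.13 (SE) and were not called. Of 14 mitochondrial tRNA synthetase genes 6 (42.9%) rose. Of 8 genes for mitochondrial transcription and RNA handling 2 (25.0%) rose, a share near that of all genes, namely bsf (an LRPPRC-family RNA-binding protein) by 0.78 and the RNA polymerase gene PolrMT by 0.36. TFAM, the mitochondrial DNA packaging factor, was at 0.03 ± 0.07 (SE).

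The RNAs that the mitochondrial ribosome contains or reads were mostly not called. The large and small mitochondrial rRNAs were not called in either direction, in libraries from which rRNA had been depleted. Of 13 mitochondrially encoded mRNAs 4 (30.8%) rose, also near the share of all genes, and 0 fell, with a median log2 fold change of 0.20. The genes of cytosolic ribosomal proteins went the other way, with 8 rises and 51 falls among 84 tested and a median of -0.12.

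**Figure D3:**
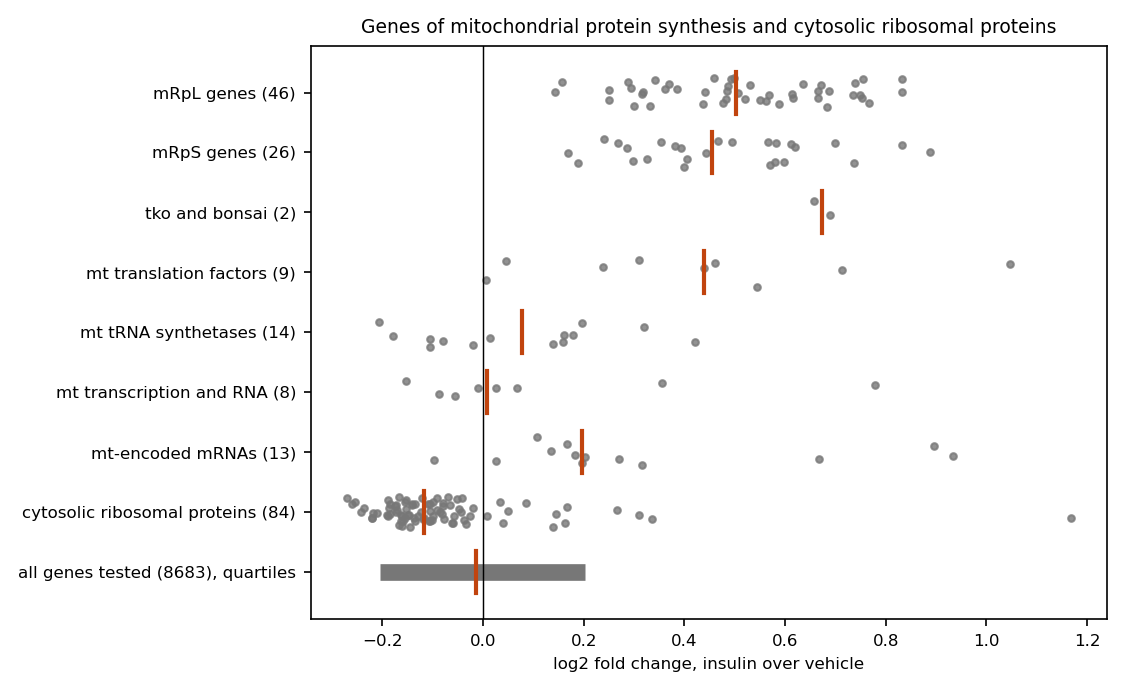
Log2 fold change, insulin over vehicle, of each gene of the lists (points, spread vertically for sight only), with the number of genes in brackets and the median as a red line. The mRpL and mRpS medians of 0.50 and 0.45 lie near that of the translation factors (0.44), whereas those of the tRNA synthetases (0.08) and the transcription and RNA handling genes (0.01) lie nearer the median of all genes tested (-0.01), drawn with its quartiles, and that of the cytosolic ribosomal proteins (-0.12) lies below it.

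The starts of the genes carried a recurrent short sequence. In the window of 250 bases before to 50 bases after each annotated start, 5 motifs were searched on both strands. None of the motifs contains another. These were TATCGATA, the DNA replication-related element (DRE) that the factor DREF binds, CACGTG, the E-box that Myc and Max bind, CAGCTG, a hexamer of the wider E-box class, GGTCACAC, the core of Ohler motif 1, and GCATGCG, the core of the site of the mammalian factor NRF-1. CAGCTG was found at 39 of the 72 genes (54.2%), against 21.7% of 7862 protein-coding genes tested and 7.14% of the cytosolic ribosomal protein genes. Both subunits had it, 26 of 46 large and 13 of 26 small subunit genes. It was also present at 5 of 9 translation factor genes, 7 of 14 mitochondrial tRNA synthetase genes and 5 of 8 genes for mitochondrial transcription and RNA handling, of which only 2 rose.

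Most matches lay close to the start. Of 44 matches in the 72 genes, 35 were within 50 bases of the start, against 1110 of 1947 matches in all protein-coding genes tested. The following windows, in dm6 coordinates from the RefSeq genome and read 5′ to 3′ on the strand of the gene, show the hexamer in capitals with 10 bases on either side, for a selection of the genes described above that carry it. In 10 of these 12 genes it lies within 50 bases of the start, and in mRpL14 and mRpS9 it lies farther upstream. The distance from the start to the first base of the hexamer is given in brackets.
mRpS6 (14 bases after, chr3L:4364554-4364579, + strand): ttccttgcatCAGCTGttaacactat
mRpL21 (23 bases before, chr3L:19255069-19255094, - strand): catgctaacaCAGCTGttcgaaaacg
mRpL32 (16 bases before, chr3R:31252846-31252871, + strand): atcgatagcaCAGCTGtttcctcttg
mRpL48 (21 bases after, chr2L:1710473-1710498, + strand): tgcacgccatCAGCTGgtgatataac
mRpL19 (8 bases after, chr3R:8674107-8674132, + strand): tcggtgctgcCAGCTGattatagtgc
mRpL28 (15 bases after, chr2L:4973981-4974006, + strand): cacatacgaaCAGCTGttttttccaa
mRpL11 (5 bases before, chr3R:14511823-14511848, + strand): gcaataccatCAGCTGttgctgcttc
mRpL14 (72 bases before, chrX:2344706-2344731, - strand): ccgctcttaaCAGCTGcttgctctgt
mRpS18B (20 bases after, chr2L:20097218-20097243, - strand): tatcggaaaaCAGCTGatccgccggc
mRpS18C (45 bases before, chr3R:30423919-30423944, + strand): cactgccgaaCAGCTGttcacagcta
mRpS9 (60 bases before, chr3R:7902712-7902737, - strand): cgccaaaaatCAGCTGaaagcttgtg
mRpL46 (2 bases before, chr3L:1777427-1777452, + strand): tgccgcaaatCAGCTGttccggctct
The hexamer is often followed by TT, and the 8 letters CAGCTGTT in either orientation were present at 26 of the 72 genes (36.1%) and at 11.0% of protein-coding genes tested. This longer form was added after the windows had been seen.

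**Figure D4:**
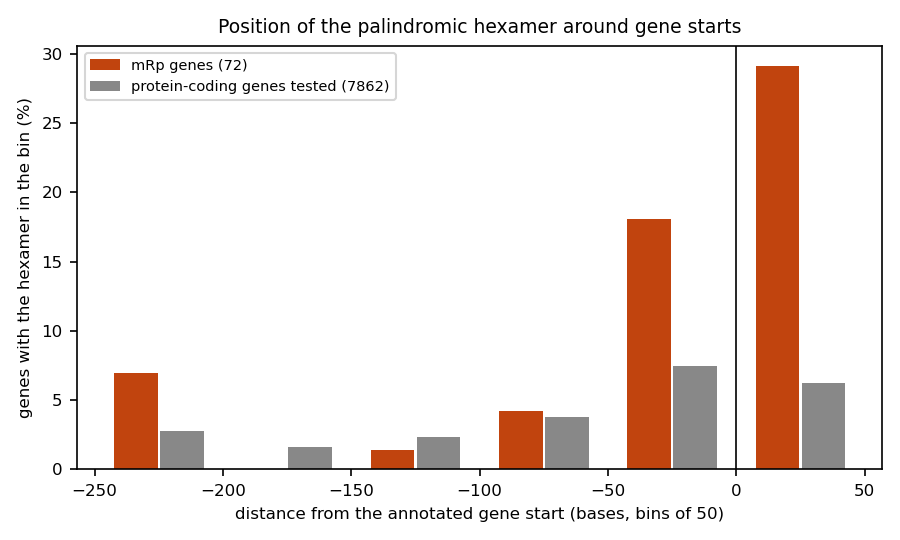
Share of genes with the hexamer in each bin of 50 bases around the annotated start, for the 72 mRp genes and for the 7862 protein-coding genes tested. The shares of the mRp genes are 18.1% in the bin before the start and 29.2% in the bin after it, against 7.45% and 6.19% of protein-coding genes.

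Among the 72 genes the median rise was slightly greater with the hexamer than without it, a difference that was not tested. The 39 genes with it had a median log2 fold change of 0.57, of which 35 rose, and the 33 without it had a median of 0.44, of which 32 rose. Among all protein-coding genes tested 30.8% of those with the hexamer and 27.9% of those without it rose. mRpL46, printed above with a hexamer 2 bases before its start, was among those not called. These are descriptions of letters in a window, and no factor was measured.

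The other motifs were nearer to their shares among all genes. The DRE was found at 15 of the 72 genes (20.8%), against 14.8% of protein-coding genes, and 14 of its 16 matches lay within 50 bases of the start, against 754 of 1296 matches in all. Of the 72 genes 5 had both the DRE and CAGCTG. In mRpL32 they were 3 bases apart, both in capitals here.
mRpL32 (DRE 27 bases before the start, chr3R:31252834-31252863, + strand): ttctataaacaTATCGATAgcaCAGCTGtt
mRpL19 (DRE 25 bases before, chr3R:8674073-8674102, + strand): ttataaagggtTATCGATAactctgctgta
mRpL39 (DRE 32 bases before, chr3L:14999680-14999709, - strand): tgtttgaaaaaTATCGATAtactgtttcca
mRpL10 (DRE 8 bases before, chr2L:203760-203789, + strand): aaatatctggcTATCGATAagaatgaataa
The DRE stood before a strong rise (mRpL32, 0.77) and before a gene that was not called (mRpL10, 0.16), and the median log2 fold change was 0.50 with it and 0.49 without it.

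The Myc-type E-box was present at 5 of the 72 genes (6.94%), against 4.34% of protein-coding genes. Over all protein-coding genes, 59.5% of those with CACGTG rose and 27.1% of those without it rose. The former was the highest such share among the 5 motifs. The median log2 fold change was 0.32 for the 5 mRp genes that had it and 0.50 for the 67 that did not, a difference that was not tested. All 5 genes are shown, with the E-box in capitals.
mRpL23 (1 base after the start, chr3L:2373688-2373713, - strand): ttggacaaccCACGTGcttttacacg
mRpS14 (20 bases before, chrX:19480243-19480268, - strand): cacactggcaCACGTGttcacgcgct
mRpS11 (84 bases before, chr3R:17072638-17072663, + strand): aaaacaagaaCACGTGaaaatagtct
mRpL16 (116 bases before, chrX:1890130-1890155, + strand): tattgtgttcCACGTGcaatatggca
mRpL27 (147 bases before, chr2L:4459770-4459795, - strand): attagctaaaCACGTGacagatatat
They rose by 0.74 in mRpL23, 0.58 in mRpS14, 0.29 in mRpS11, 0.32 in mRpL16 and 0.32 in mRpL27 on the log2 scale.
Ohler motif 1 was found at 8 of the 72 genes (11.1%) and 12.8% of protein-coding genes, and the NRF-1 core at 1 gene, mRpL21.

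Many of these genes share their upstream region with a neighbour on the other strand. A partner starting within 500 bases upstream in the opposite direction was found for 51 of the 72 genes (70.8%), against 36.0% of protein-coding genes tested. Of the 46 partners tested, 16 rose, 9 fell and 21 were not called, with a median log2 fold change of 0.02. Divergent partners of all protein-coding genes rose in 31.3% of cases, close to the 34.8% here. In 41 of the 46 pairs the mRp gene had the higher signed fold change, a count that follows in part from all mRp genes having positive values.

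Single pairs show this range. mRpL51 and CG13090 start 31 bases apart, and their log2 fold changes were 0.83 and 0.00. mRpL48 and CG17660 start 41 bases apart, with 0.76 and -0.07. HtrA2, a mitochondrial protease gene that starts 126 bases from mRpL11, fell by 0.53 ± 0.22 (SE). CG13698, beside mRpS26, fell by 0.71 ± 0.24 (SE). Both were low, HtrA2 at 3.41 CPM in insulin and 4.76 CPM in vehicle libraries on average, and CG13698 at 2.44 and 4.06 CPM. By contrast Art3, a protein arginine methyltransferase gene beside mRpS10, rose by 1.11, and CG9004, 24 bases from mRpL23, rose by 0.67, close to the 0.74 of mRpL23. mRpS17, not called at 0.19, starts 436 bases from Nop60B, which encodes the pseudouridine synthase of box H/ACA particles and rose by 0.91. These partners were chosen after their values were seen.

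**Figure D5:**
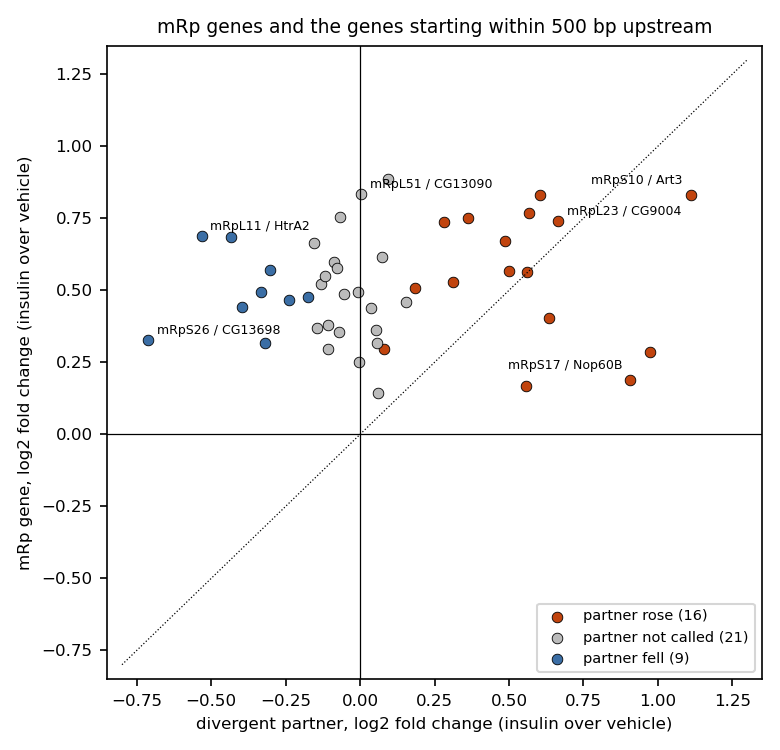
Log2 fold change, insulin over vehicle, of each mRp gene (vertical axis) and of the gene that starts within 500 bases upstream on the other strand (horizontal axis), for 46 pairs, with the dotted line at equal change. The mRp genes all lie above 0, whereas the partners spread from -0.71 to 1.11, and 41 of the 46 points lie above the line.

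Fewer of these genes than of all genes tested had an ATAC-seq peak to their name. The merged ATAC-seq peaks had 31 peaks annotated to 24 of the 72 genes (33.3%), whereas 52.9% of all genes tested had a peak. A promoter peak of 1 kb or less was found for 23 genes (31.9%), against 49.0%. This count depends on how peaks were named, because the annotation gives each peak to 1 gene. By position, 36 of the 72 starts (50.0%) lay inside a peak, against 54.1% of all genes tested, and 19 of these peaks carried the name of another gene, most often the divergent partner. mRpL28, the gene with the highest level per length over both treatments together, had no peak of its own, but its start lay in a peak annotated to its divergent partner. Starts inside peaks were more frequent in the large subunit, 28 of 46, than in the small subunit, 8 of 26, a difference that was not tested.

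Genes with and without a peak over the start rose about as often. Of the 36 genes with one, 34 rose with a median log2 fold change of 0.57, and of the 36 without one, 33 rose with a median of 0.47. Among all protein-coding genes 33.0% of those with a peak over the start and 22.8% of those without one rose. The median of the authors' mean normalised count was 215 for the 31 peaks and 243 for all 10269 peaks. Weak and strong peaks were both present, and most of the 31 lay below the median of all peaks. The weakest, at mRpL12, had a count of 122, above 3.91% of all merged peaks. The strongest, at mRpL47, had 692, above 86.5% of them.

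The lists of the separate treatments held a similar number of these genes. The authors called each list on the 3 samples of a treatment together, so no replicate error can be given. A peak of the insulin list was present at 20 of the genes and of the vehicle list at 19. Of the 31 merged peaks 17 (54.8%) were in both lists, 8 (25.8%) in the insulin list alone and 6 (19.4%) in the vehicle list alone. Of all 10269 merged peaks 78.8% were in both lists, 8.78% in the insulin list alone and 12.4% in the vehicle list alone. The median width was 610 bases for the 31 peaks and 690 bases for all peaks, and the difference in these shares was not tested. Those in the insulin list alone were at mRpL1, mRpL9, mRpL12, mRpS26, mRpS33 and, with 3 peaks, mRpL10. Those in the vehicle list alone were at mRpL10, mRpL14, mRpL15, mRpL39, mRpS18A and mRpS22. Genes of both kinds rose, for example mRpL1 (0.59) and mRpL15 (0.67), and mRpL10, which had 4 of these 14 peaks, was not called. All 14 had a mean normalised count below the median of 243 for all merged peaks, the highest being mRpL39 at 233. Peaks in both lists lay on either side of it, from 153 at mRpS6 to 692 at mRpL47. Whether the openness of the 14 peaks differed between the treatments was not tested.

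Peaks away from the own promoter were rare. mRpL10 had 5 peaks, of which the one over the start (2L, 203511 to 204560) was in both lists with a mean count of 351, and the farthest lay in an exon 8439 bases upstream of the start. mRpL14 had a peak over its start (X, 2344091 to 2344840), one that began 889 bases downstream of the start, beyond the end of the gene, and one 2382 bases upstream, the last in the vehicle list alone. The only peak annotated to mRpL16 lay in an exon 3025 bases from its start, while the start itself lay in a peak annotated to trr, a histone methyltransferase gene.

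Of the 70 genes found in the reference, 40 overlapped an exon of a gene on the opposite strand and 2 an exon on the same strand (mRpL13 with CG10602 and mRpS14 with CG32533). The authors counted reads by strand, which separates the first kind only as far as the libraries keep the strand, and this was not checked. For the second kind the counts are uncertain in any case. These overlaps are given as a limit on the counting of reads, without the share among all genes beside them.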

How the data were processed

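RNA-seq and ATAC-seq were each performed on 3 insulin and 3 vehicle samples. For RNA-seq, the authors used STAR (BDGP6) and strand-specific counting with featureCounts, and the deposited counts are whole numbers without normalisation. ATAC-seq reads were aligned to dm6 with Novoalign. The authors called peaks per treatment, and the deposited lists give a score per peak, used here only to locate peaks. For merged peaks, annotated with ChIPseeker, the authors' deposited mean normalised count over all libraries is a signal without replicate values. Versions of these tools are not stated. Gene positions came from the deposited annotation. The authors' fold changes and p-values were not used.

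Counts were fitted with edgeR 4.0.16 (R 4.3.3, TMM, filterByExpr, robust quasi-likelihood test, Benjamini-Hochberg FDR over 8683 genes, threshold 0.05). The test was tested on simulated data. DESeq2 1.42.0 was an alternative. CPM are scaled by TMM factors, and lengths are unions of exons in Ensembl. Motifs, partners and peaks were counted with Python 3.11.15 and pandas 2.3.3. A peak of a list was matched to a merged peak at an overlap of at least 1 bp. IDs of mRpS5 and mRpS34 were absent from the reference, so no length was used. Peaks carry no test, because no values of single ATAC-seq samples entered.

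The genes and lists were chosen with earlier results of these data known. Named genes were the 8 greatest rises and falls, the 4 highest and 4 lowest levels per length, mRpL14, mRpS30, stalk proteins, genes sharing a number, and genes with a peak in 1 list alone or outside the promoter. For other lists, up to 4 genes with the smallest FDR were named, and any further gene was chosen after its values were seen. Alternatives were other normalisations and filters, DESeq2, a non-robust fit and leaving out each library.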

Additional observations from a re-analysis of the deposited data

How the results depend on the processing

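In 12 of 13 alternatives 63 to 67 genes rose and in the other 68, with 0 falls in each. Leaving out each library in turn gave 63 to 68 rises, the lowest without X5, where mRpL4, mRpL27, mRpL34 and mRpL54 were no longer called, and the highest without X4, where mRpS17 was called (log2 fold change 0.25, FDR = 0.0340, edgeR). At FDR < 0.1 there were 69. Without X3, mRpL27 and mRpL34 were also lost, and 65 genes rose. mRpL34 was further lost under upper-quartile scaling, total counts, DESeq2 and the non-robust fit. All 72 fold changes stayed positive under all 13. The median of the mRpS genes was 0.40 under upper-quartile scaling and 0.41 with total counts, which lower the median of all genes to -0.07 and -0.06, and 0.40 to 0.48 when leaving out each library, lowest without X1. For 31 of the named genes, 402 of 403 values kept their direction and side of the threshold. These 31 did not include mRpL4, mRpL27, mRpL34 and mRpL54, whose lost calls are given above. No paired analysis was possible because the columns of the count table carry no replicate numbers. The partner limit, chosen after seeing the data, mattered most, with 20 genes at 200 bases (27.8%, against 13.7% of protein-coding genes) and 56 at 1000 bases (77.8%, against 45.9%). For the hexamer, with windows also chosen after seeing the data, within 50 bases of the start 34 genes had the hexamer, and in a window of 500 before to 100 after it 44 had it, against 13.2% and 31.6% of protein-coding genes. Other counts of peaks, subunits and levels changed little. Gene starts are annotated and not measured, and low counts limit mRpL41, mRpS6 and mRpS28.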
